A study of Mus musculus with 17 samples.

Results

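A set of 10 immediate early genes was followed across the ovaries of 4 mouse genotypes: Fos, Fosb, Jun, Junb, Jund, Egr1, Nr4a1, Ier2, Dusp1 and Zfp36. They were taken by name, as every probe of the Illumina MouseWG-6 v2.0 bead array whose annotated gene symbol is one of these 10, which gave 11 of the 45281 probes, 2 of them for Junb. Of these, 9 probes of 9 genes passed the filter on dim probes (detected, with p under 0.05, on 4 or more arrays), as did 23098 probes of 12137 named genes among all 19057 on the array. The second Junb probe and the single Nr4a1 probe did not pass.

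Immediate early genes are transcribed within minutes of a signal reaching the cell, without new protein having to be made first. FOS and JUN proteins pair to form the transcription factor AP-1, EGR1 and NR4A1 are transcription factors in their own right, and DUSP1 and ZFP36 act as brakes, DUSP1 by removing phosphate from MAP kinases and ZFP36 by speeding the decay of short-lived mRNAs. In the ovary, luteinising hormone acts through its receptor, Lhr, on theca, luteal and mature granulosa cells, and follicle-stimulating hormone acts through Fshr on granulosa cells. Both receptors raise cAMP, and several of these genes are known to respond to it.

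Total RNA of whole ovaries came from female mice of a cross between FVB/N and C57/BL6, 12 weeks old, and was hybridised as biotin-labelled cRNA. The groups were wild type (4 arrays), Fshr-CAM, which carries a mutant Fshr (4 arrays), Lhr-null (4 arrays, 3 used) and Fshr-CAM/Lhr-null, which carries both changes (5 arrays). The meaning of CAM, the promoter behind it, and whether each array held 1 mouse or pooled ovaries are not given in the sources used here, so that p-values measure the spread between these samples, which may be technical. Values are log2 signals after background correction and quantile normalisation, and a fold change is on that scale. In bulk ovary, fewer cells of a type and less RNA per cell cannot be told apart.

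Some arrays stood apart. The array labelled Lhr-null replicate 1 gave log2 signals of 14.90 for Gh, 14.71 for Prl and 14.40 for Lhb, genes of pituitary hormones, and 4.51 for Fshr. It was left out, and values that include it are given where they changed a result of the 9 genes or a count of calls. Cell type markers were not counted with it, and changes of the other early genes named below are given without it. Fshr was 11.12 to 11.88 on the 4 Fshr-CAM arrays and 11.41 to 11.72 on 4 of the 5 Fshr-CAM/Lhr-null arrays, but 9.73 on replicate 4 of that genotype, within the Lhr-null range of 9.14 to 9.92. Lhr-null replicate 2 gave 13.33 for the testis gene Ldhc, against 4.58 to 7.12 on the other arrays used, and 12.17 for the sperm gene Prm1. Prm1 also read 8.99 and 10.24 on Lhr-null replicates 3 and 4. It read 8.74 and 7.71 on wild type replicates 3 and 4 and 8.0 on Fshr-CAM replicate 4. The oviduct gene Ovgp1 was at 11.31 and 13.36 on Lhr-null replicates 3 and 4, and Fshr-CAM/Lhr-null replicate 3 gave 10.48, against 6.24 to 7.43 on the other 13 arrays. The array has no probe named for Lhcgr, the gene of Lhr, so its absence was not checked. Of the ovary's defining markers, 7 of 7 granulosa and 6 of 7 oocyte genes on the array passed the filter.

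Promoter sequence is shown for the 4 genes that passed the test below and for Fos, which did not, because cAMP and growth factor signals are known to reach such genes through short motifs near the start site. Each run is the 250 bases before the annotated start, 5′ to 3′ on the gene's strand, from RefSeq on GRCm38.p6. Capitals mark the cAMP response element TGACGTCA, its shorter form TGACG, the CArG box (the site of serum response factor) and the TATA sequence TATAAA.
Dusp1, chr17:26508473-26508722, minus strand: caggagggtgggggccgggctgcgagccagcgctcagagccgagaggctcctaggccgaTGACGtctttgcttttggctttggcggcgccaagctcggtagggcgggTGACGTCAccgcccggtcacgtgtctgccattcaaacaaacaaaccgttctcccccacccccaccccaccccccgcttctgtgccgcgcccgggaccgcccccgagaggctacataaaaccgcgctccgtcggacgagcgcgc
Junb, chr8:84978749-84978998, minus strand: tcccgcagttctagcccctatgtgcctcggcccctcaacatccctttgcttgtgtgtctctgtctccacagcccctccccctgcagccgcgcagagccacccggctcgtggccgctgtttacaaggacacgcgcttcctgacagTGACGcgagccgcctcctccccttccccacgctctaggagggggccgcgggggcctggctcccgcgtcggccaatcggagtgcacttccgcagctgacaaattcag
Fos, chr12:85473640-85473889, plus strand: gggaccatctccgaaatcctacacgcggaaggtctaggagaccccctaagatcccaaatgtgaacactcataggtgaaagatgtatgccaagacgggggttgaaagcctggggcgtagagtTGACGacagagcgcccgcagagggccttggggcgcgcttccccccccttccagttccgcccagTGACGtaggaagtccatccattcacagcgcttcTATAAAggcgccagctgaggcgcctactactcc
Zfp36, chr7:28379229-28379478, minus strand: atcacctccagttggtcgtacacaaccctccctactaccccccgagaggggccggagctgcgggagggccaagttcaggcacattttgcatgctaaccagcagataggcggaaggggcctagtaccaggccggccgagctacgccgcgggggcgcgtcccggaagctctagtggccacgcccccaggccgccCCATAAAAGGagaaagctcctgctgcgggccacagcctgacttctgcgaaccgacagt
Jun, chr4:95052223-95052472, minus strand: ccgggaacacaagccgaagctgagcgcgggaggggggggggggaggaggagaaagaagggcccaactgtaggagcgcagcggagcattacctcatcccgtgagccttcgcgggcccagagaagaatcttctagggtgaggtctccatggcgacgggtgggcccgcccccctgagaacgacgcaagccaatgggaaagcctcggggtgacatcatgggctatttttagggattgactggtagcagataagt

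Both strands were searched, so the full element of Dusp1, at position -143 from the start site, also counts as a pair of overlapping short forms. Of the 10 genes, 8 had an entry. The full element lay in 1 of these 8, Dusp1, and in 1.55% of 32841 mouse promoters of the same length. The short form lay in 5 of the 8, namely Fos, Fosb, Junb, Nr4a1 and Dusp1, against 17.8% of all promoters, and the CArG box in Zfp36 alone, against 1.47%. The AP-1 sequence TGANTCA lay in 0 of the 8 and in 6.75% of all promoters. Jun and Jund held none of the motifs searched. A match describes these letters only.

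The sharpest difference across genotypes was in Dusp1, the MAP kinase phosphatase (probe ILMN_2622983). Its log2 signals were 12.27, 11.08, 12.49 and 11.79 on the 4 wild type arrays and 12.76, 10.58, 10.28 and 10.99 on the 4 Fshr-CAM arrays. On the Lhr-null arrays 2 to 4 they were 9.27, 9.12 and 9.28, and on the 5 Fshr-CAM/Lhr-null arrays 8.77, 9.04, 9.37, 8.97 and 9.20. All 8 arrays without Lhr thus lay below all 8 arrays with it, and the 8 low arrays were close together while the high ones spread over more than 2 log2 units. Before normalisation the same probe read 2303 to 5854 in wild type and 1273 to 8474 in Fshr-CAM. In Lhr-null it read 519 to 663 and in Fshr-CAM/Lhr-null 428 to 705. Among all probes, Lhr-null lay wholly below wild type for 12.4%, and Fshr-CAM/Lhr-null wholly below Fshr-CAM for 3.61%. The share of probes with all 8 arrays without Lhr below all 8 with it was not counted.

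Dusp1 fell 6.45-fold in Lhr-null against wild type (log2 change -2.69 ± 0.44 SE, limma adjusted p = 0.00138, n = 3 and 4). It fell 4.24-fold in Fshr-CAM/Lhr-null against Fshr-CAM (-2.08 ± 0.39, limma adjusted p = 0.00991, n = 5 and 4). The 2 comparisons share no array, but they share the normalisation, the detection filter and the estimate of the spread. Both calls held in each of 16 fits that left out 1 array, with log2 changes of -2.96 to -2.49 and of -2.37 to -1.54. The value of -1.54 came without Fshr-CAM replicate 1, the highest of all arrays used. With the array labelled Lhr-null replicate 1 included, where Dusp1 read 13.08, the changes were -1.72 (limma adjusted p = 0.179) and -2.08 (0.316), and neither passed.

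**Figure D1:**
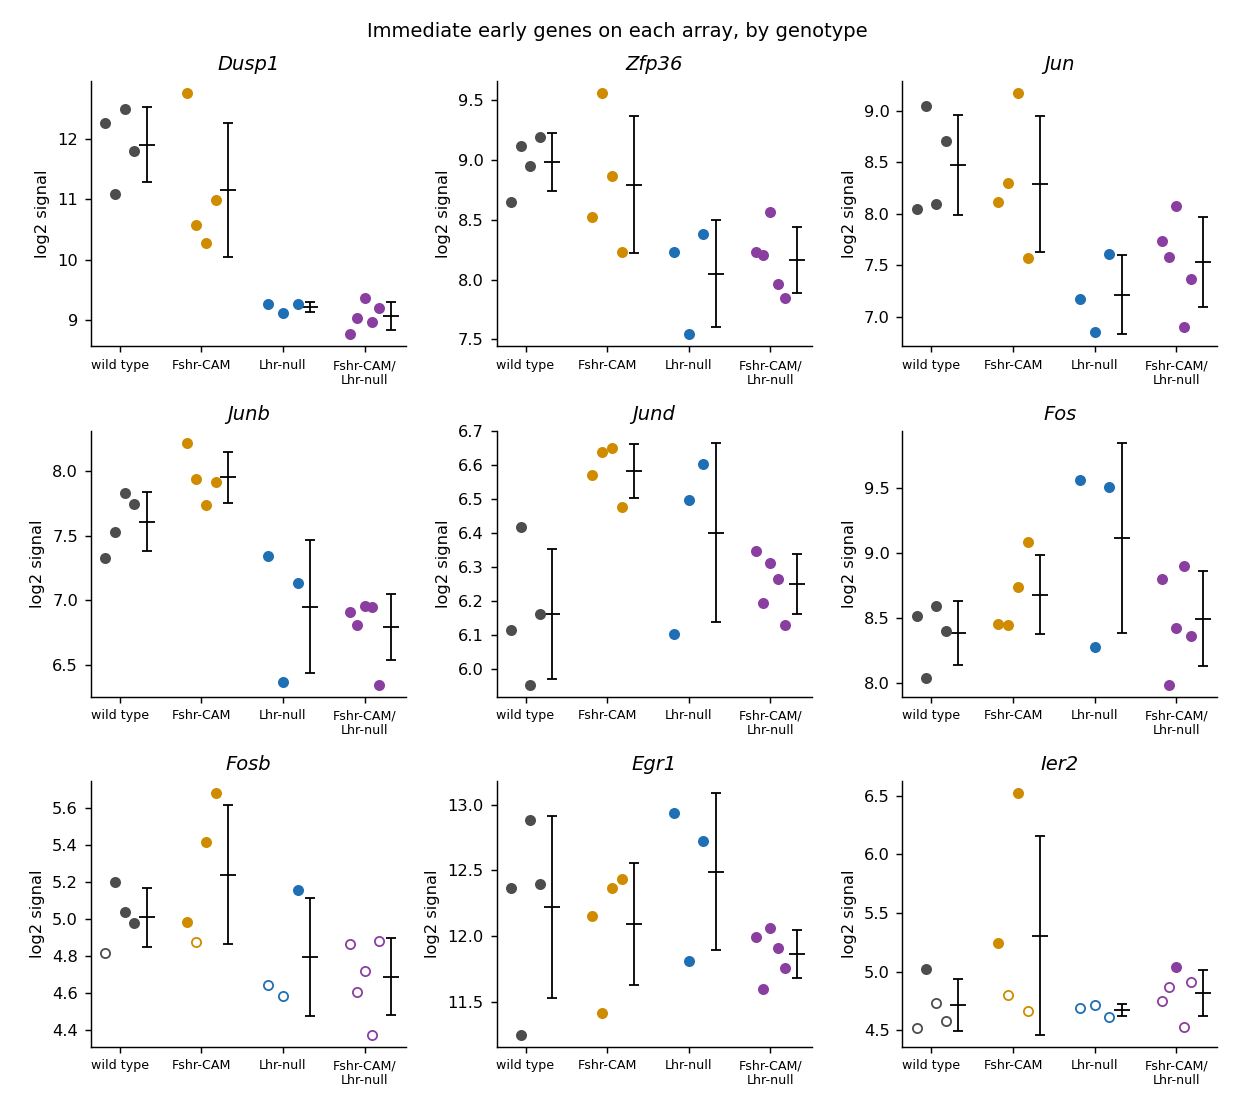
Log2 signal of the 9 genes that passed the detection filter, 1 point per array, with filled points for a detection p under 0.05 and open points above it; the bar beside each group is the mean ± SD over its arrays (4, 4, 3 and 5). Dusp1 lies between 8.77 and 9.37 on the 8 arrays without Lhr and between 10.28 and 12.76 on the 8 with it.

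Zfp36, also called tristetraprolin, which binds AU-rich mRNA and shortens its life, was measured by probe ILMN_3162407. It gave 8.65, 9.12, 8.95 and 9.20 in wild type and 8.52, 9.56, 8.87 and 8.23 in Fshr-CAM. In Lhr-null it gave 8.23, 7.54 and 8.38, and in Fshr-CAM/Lhr-null 8.23, 8.21, 8.56, 7.97 and 7.85. Lhr-null and wild type did not overlap, whereas Fshr-CAM/Lhr-null overlapped the lower Fshr-CAM arrays.

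Zfp36 fell 1.90-fold in Lhr-null against wild type (-0.93 ± 0.27, limma adjusted p = 0.0449). In Fshr-CAM/Lhr-null against Fshr-CAM the change was -0.63 ± 0.24 and did not pass (limma adjusted p = 0.213). The first call lies just under the threshold: it held in 7 of 16 fits that left out 1 array (limma adjusted p 0.0192 to 0.171). It was lost without any one of the 3 Lhr-null arrays and without wild type replicate 2, 3 or 4. Of the arrays compared, only wild type replicate 1 could be left out with the call kept. It was also lost without Fshr-CAM replicate 3 and without Fshr-CAM/Lhr-null replicate 1 or 2, arrays outside the comparison. With the array labelled Lhr-null replicate 1 it was -0.50 (limma adjusted p = 0.481).

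Jun encodes the AP-1 subunit that can pair with itself or with FOS proteins (probe ILMN_2646625). Wild type arrays read 8.05, 9.04, 8.10 and 8.71, and Fshr-CAM arrays 8.12, 8.30, 9.17 and 7.57. Lhr-null arrays read 7.18, 6.85 and 7.61, and Fshr-CAM/Lhr-null arrays 7.73, 7.59, 8.08, 6.90 and 7.37. Again Lhr-null and wild type did not overlap, and the other pair of groups did.

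Jun fell 2.40-fold in Lhr-null against wild type (-1.26 ± 0.35, limma adjusted p = 0.0331). Against Fshr-CAM, Fshr-CAM/Lhr-null differed by -0.76 ± 0.31, which did not pass (limma adjusted p = 0.240). Leaving out 1 array at a time, the first call held in 12 of 16 fits and was lost when wild type array 2 or 4, or Lhr-null array 2 or 3, was left out (adjusted p 0.0178 to 0.114 over the 16). It was also lost with no detection filter (limma adjusted p = 0.0531), with array weights (0.0549) and with the replicate block (0.0631). Jun was the only one of the 9 genes still called with the array labelled Lhr-null replicate 1, at -1.38 (limma adjusted p = 0.0212), and the only one lower on that array (6.72) than on the other 16.

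Junb, an AP-1 subunit that often opposes JUN, was measured by probe ILMN_1220034. It gave 7.33, 7.53, 7.83 and 7.74 in wild type and 8.22, 7.94, 7.74 and 7.92 in Fshr-CAM. It gave 7.35, 6.37 and 7.13 in Lhr-null and 6.91, 6.81, 6.95, 6.95 and 6.35 in Fshr-CAM/Lhr-null. Here the pattern was the other way about: Fshr-CAM/Lhr-null lay wholly below Fshr-CAM, while the highest Lhr-null array just exceeded the lowest wild type array.

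Junb fell 2.24-fold in Fshr-CAM/Lhr-null against Fshr-CAM (-1.16 ± 0.20, limma adjusted p = 0.00529), a call held in all 16 fits that left out 1 array (-1.23 to -1.05). In Lhr-null against wild type it was -0.66 ± 0.22 and missed the threshold (limma adjusted p = 0.0730), though it passed without Lhr-null replicate 2 (-0.86, limma adjusted p = 0.0405) and with median-centred signals (-0.58, 0.0499). Including the array labelled Lhr-null replicate 1, where Junb read 10.58, the change against Fshr-CAM was -1.16 with a limma adjusted p of 0.594, and that against wild type turned to 0.25 (0.873). The second Junb probe, ILMN_1254833, had detection p of 0.0737 to 0.465 on these arrays and raw signals of 46.2 to 65.8, so it gave no level to set beside the first.

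Jund, the AP-1 subunit that many resting cells already hold, differed little between genotypes (probe ILMN_2682788). Wild type arrays gave 6.11, 6.42, 5.95 and 6.16 and Fshr-CAM arrays 6.57, 6.64, 6.65 and 6.48. Lhr-null arrays gave 6.10, 6.50 and 6.60 and Fshr-CAM/Lhr-null arrays 6.35, 6.19, 6.31, 6.27 and 6.13. All 4 Fshr-CAM arrays lay above the wild type and above the Fshr-CAM/Lhr-null arrays, but by differences of 0.42 ± 0.14 and -0.33 ± 0.13 that did not pass (limma adjusted p = 0.571 and 0.231). Of all probes, 1.86% had every Fshr-CAM array above every wild type array.

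Fos, the AP-1 subunit most often used as a mark of recent activity, did not follow Dusp1 (probe ILMN_2750515). It read 8.51, 8.03, 8.59 and 8.40 in wild type and 8.45, 8.44, 8.74 and 9.08 in Fshr-CAM. It read 9.56, 8.27 and 9.51 in Lhr-null and 8.80, 7.98, 8.42, 8.89 and 8.36 in Fshr-CAM/Lhr-null. The Lhr-null mean was the highest of the 4, from replicates 2 and 4, and replicate 3 lay among the wild type arrays. The difference from wild type was 0.73 ± 0.29 and did not pass (limma adjusted p = 0.120), except without Lhr-null replicate 3 (1.15, limma adjusted p = 0.0112). In Fshr-CAM/Lhr-null against Fshr-CAM it was -0.19 ± 0.25 (limma adjusted p = 0.787).

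Fosb, a close relative of FOS, was near background (probe ILMN_2778279). It was detected on 3 of 4 wild type arrays, 3 of 4 Fshr-CAM arrays, 1 of 3 Lhr-null arrays and 0 of 5 Fshr-CAM/Lhr-null arrays. Where detected its log2 signals were 4.98 to 5.68. Against Fshr-CAM, Fshr-CAM/Lhr-null was at least 1.19-fold lower, a bound set by the lowest signal above background on each array, but the difference of -0.55 ± 0.18 did not pass (limma adjusted p = 0.141).

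Egr1, a zinc finger transcription factor induced by gonadotropins in the ovary, was bright on every array (probe ILMN_2662926). Its wild type values were 12.37, 11.25, 12.89 and 12.40 and its Fshr-CAM values 12.15, 11.42, 12.37 and 12.43. In Lhr-null it was 12.93, 11.81 and 12.72, and in Fshr-CAM/Lhr-null 12.00, 11.60, 12.06, 11.91 and 11.76. The 4 genotypes overlapped throughout, and the widest spread was within wild type. No change passed: 0.26 ± 0.33 in Lhr-null against wild type (limma adjusted p = 0.687, 95% interval -0.44 to 0.97) and -0.23 ± 0.29 in Fshr-CAM/Lhr-null against Fshr-CAM (0.775, interval -0.85 to 0.40). A fall as large as that of Dusp1 lies outside both intervals.

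Ier2, a nuclear protein gene of the early response, was detected on 4 of 16 arrays (probe ILMN_2642705), 1 in wild type, 2 in Fshr-CAM, 0 in Lhr-null and 1 in Fshr-CAM/Lhr-null. Its highest value was 6.52, on Fshr-CAM replicate 3, and the remaining 15 arrays read 4.52 to 5.24. Nr4a1, the orphan nuclear receptor NUR77, was not well above background on any array (probe ILMN_2701881, detection p 0.387 to 0.984, raw signals of 38.7 to 59.9), so that its level was not measurable here.

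Taking the 9 genes together, 3 were called lower in Lhr-null against wild type (Dusp1, Jun and Zfp36) and 0 higher, where 5.87% of all 23098 probes were called lower and 3.69% higher. Of the 7 genes detected on all 16 arrays, 4 lay below 0, with a median log2 change of -0.66, against 49.8% of all genes so detected and a median of 0.00. The median over the 9 was -0.21, the value of Fosb, which was near background, and it turned to 0.25 with 17 arrays. Dusp1, Jun and Zfp36 were also the 3 genes whose groups did not overlap, as was the case, in the lower direction, for 12.4% of all probes. In Fshr-CAM/Lhr-null against Fshr-CAM, 2 of the 9 were called lower (Dusp1 and Junb) and 0 higher, where 1.27% of all probes were called lower and 0.346% higher. The 7 genes detected on all arrays lay below 0 there, with a median of -0.63, against 44.6% of all genes so detected and a median of 0.03. The median over the 9, -0.55, was again the value of Fosb. For 3 genes (Dusp1, Junb and Jund) the groups did not overlap, as was the case in the lower direction for 3.61% of all probes. With 17 arrays the calls were 1 of 9 and 0 of 9, where 4.03% and 0.489% of 23311 probes were called lower.

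**Figure D2:**
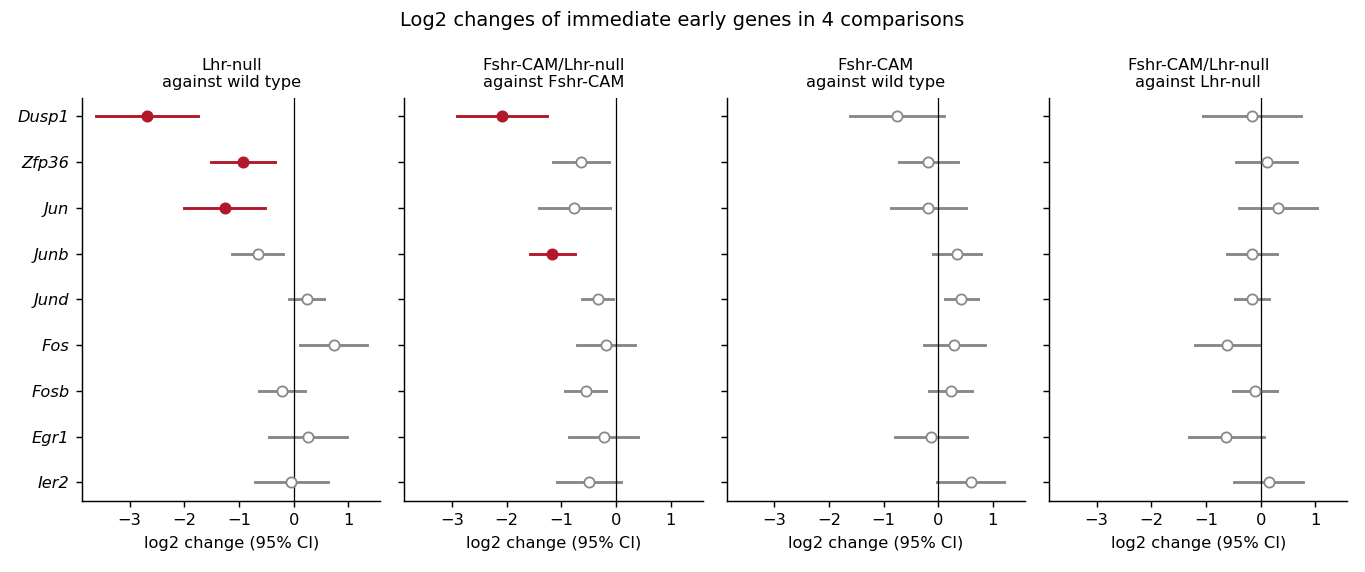
Log2 change of each gene in 4 comparisons, with the limma estimate as a point and its 95% confidence interval as a line; filled red points passed the adjusted p threshold of 0.05. Dusp1 is red in both comparisons of Lhr loss, at -2.69 and -2.08, and no gene is red in either comparison of Fshr-CAM.

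The comparisons that ask what the mutant Fshr did gave no call among the 9 genes. For Fshr-CAM against wild type 0 of 9 passed, where 0.13% of all probes did in either direction, and 1 of 9, Jund, had an unadjusted limma p under 0.05, against 5.39% of all probes. For Fshr-CAM/Lhr-null against Lhr-null 0 of 9 passed, against 0.563% of all probes (130), and 1 of 9, Fos at -0.62 ± 0.27, had an unadjusted p under 0.05, against 12.6%. Dusp1 stood at -0.76 ± 0.41 in the first (limma adjusted p = 0.970, 95% interval -1.62 to 0.11) and at -0.15 ± 0.42 in the second (0.930, interval -1.04 to 0.74). Without Fshr-CAM/Lhr-null replicate 4, whose Fshr signal was within the Lhr-null range, 413 probes were called against Lhr-null and still 0 of the 9. These comparisons share arrays with those above.

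Whether the effect of Lhr loss differed with the Fshr genotype is asked by the interaction term, the change from Lhr-null to Fshr-CAM/Lhr-null minus the change from wild type to Fshr-CAM. It called 0 of the 9 genes, where it called 0.156% of all probes, and 2 of 9 had an unadjusted p under 0.05, against 6.88%. Those were Fos (-0.92 ± 0.38, unadjusted p = 0.0293, limma adjusted p = 0.663) and Jund (-0.57 ± 0.20, unadjusted p = 0.0118, limma adjusted p = 0.563). For Dusp1 it was 0.61 ± 0.58 (limma adjusted p = 0.906), for Jun 0.50 ± 0.47 (0.901), for Zfp36 0.30 ± 0.37 (0.937) and for Junb -0.50 ± 0.30 (0.802). A call in one comparison and not in the other is therefore not shown to be a difference between them.

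**Figure D3:**
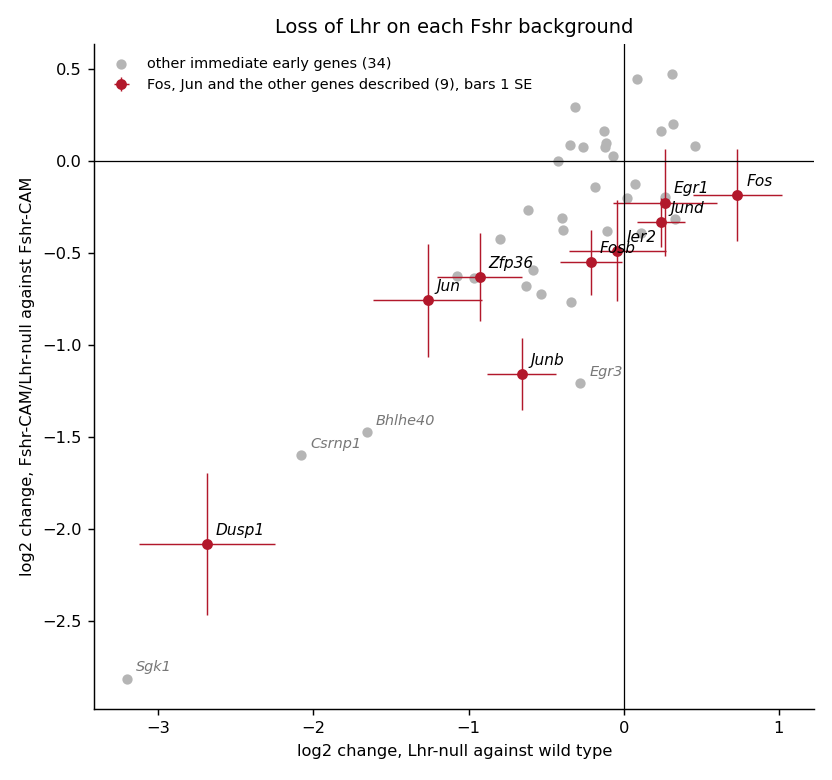
Log2 change in Fshr-CAM/Lhr-null against Fshr-CAM (vertical) plotted over that in Lhr-null against wild type (horizontal) for the 9 genes in red, with bars of 1 SE, and for 34 other immediate early genes in grey. The horizontal and vertical values rest on separate arrays. Dusp1 lies far to the lower left at -2.69 and -2.08 with Sgk1 beyond it at -3.20 and -2.82, and Fos lies to the right at 0.73 and -0.19.

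Of the 7 genes detected on all 16 arrays, Dusp1, Jun, Zfp36 and Junb were below 0 in both comparisons of Lhr loss, 0 were above 0 in both, and Fos, Egr1 and Jund were split. Over all 9606 genes so detected, taking 1 probe each, 34.1% were below 0 in both. Fosb and Ier2 are left out of that count, which was chosen after their values were seen, because groups without Lhr gave them little or no signal above background. Only Dusp1 of the 9 was called lower in both, as were 176 of the 12137.

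How the 9 genes varied from array to array within a genotype was described by the correlation of their deviations from the genotype means over 16 arrays, for 36 pairs. Fos and Egr1 varied together (Pearson r = 0.75, permutation p = 0.00041, adjusted 0.0148). Their Spearman rho was 0.76 (permutation p = 0.00197, adjusted 0.0709), and r was 0.70 without the 2 arrays farthest from the median of Fos. Fos with Egr1 was the only pair with an adjusted permutation p of Pearson r under 0.05. Jun went with Zfp36 at r = 0.64 and with Ier2 at r = 0.73, neither of which passed (adjusted permutation p = 0.315 and 0.127). The latter fell to 0.47 without the 2 arrays farthest from the median of Jun, and Ier2 was detected on only 4 of the 16 arrays. In all, 21 of the 36 r values were above 0, with a median of 0.08. Dusp1 had r between -0.40 and 0.39 with the other 8 genes.

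**Figure D4:**
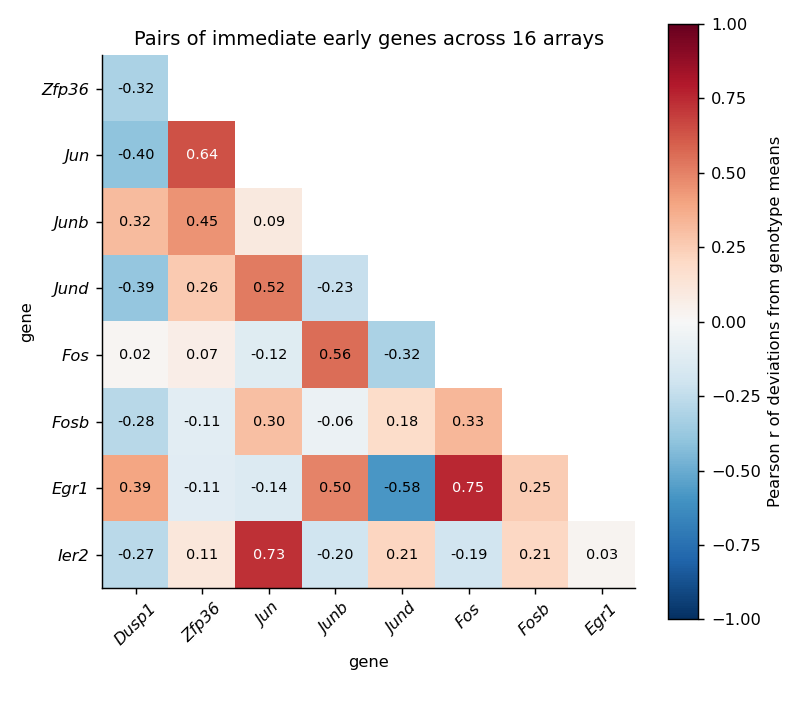
Pearson r between pairs of genes, calculated from each array's deviation from its genotype mean over 16 arrays; red is positive and blue negative. Fos with Egr1 is the darkest square at 0.75, and the lowest value is -0.58, for Egr1 with Jund.

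Genes elsewhere on the array were ranked by how closely their levels, genotype differences included, followed the mean standardised profile of the 9 genes over 16 arrays, among 11728 genes. Egr2, a relative of Egr1, came first (Pearson r = 0.84), followed by Dpy19l4 (0.82), H2bc14, Cited4, S100a6, Creb3, Trim16 and Slc25a39 (0.79). With the genotype means removed the order was different, led by Gtpbp3 (0.83), Cacnb4, Lrrc51, Abcc3, Hopx, Ift172, Cant1 and Pigv (0.79). These are the highest of many values and carry no test. The profile followed the 9 genes unevenly, with r in levels from 0.24 for Fos to 0.87 for Junb. Fosb and Ier2, detected on only 7 and 4 of 16 arrays, weighed as much in the profile as the bright genes. Their r in levels was 0.78 and 0.52, so signals near background helped to shape the ranking. With the genotype means removed, r ranged from 0.02 for Dusp1 to 0.66 for Jun.

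Other genes of the early response were taken from a list of 44, of which 42 were on the array and 34 passed the filter. In Lhr-null against wild type 6 of the 34 were called lower and 0 higher, against 6.37% and 4.85% of all genes with 1 probe each. Sgk1, a kinase induced by hormones, fell 9.21-fold (-3.20 ± 0.22, limma adjusted p = 9.77e-07). Csrnp1, a nuclear protein induced by AXIN, fell by 2.08 ± 0.54 on the log2 scale (limma adjusted p = 0.0248). Its Lhr-null arrays read 7.04, 4.73 and 4.93 against 7.14 to 8.20 in wild type, so the fall came mainly from replicates 3 and 4. Bhlhe40, a clock-related repressor, fell by 1.66 ± 0.31 (limma adjusted p = 0.00327). Crem, whose short forms repress cAMP response elements, fell by 1.07 ± 0.23 (limma adjusted p = 0.00923). The median over the list was -0.27, against 0.00 over all genes.

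In Fshr-CAM/Lhr-null against Fshr-CAM, 3 of the 34 were called lower and 0 higher, against 1.63% and 0.395% of all genes. They were Sgk1 (7.04-fold, -2.82 ± 0.19, limma adjusted p = 8.60e-07), Bhlhe40 (-1.48 ± 0.27, 0.00889) and Egr3, a relative of Egr1 (-1.21 ± 0.23, 0.0111). Sgk1 read 12.57 to 13.74 on the 8 arrays with Lhr and 9.84 to 10.62 on the 8 without. It thus separated them as Dusp1 did, and the share of all genes that did so was not counted. None of the 34 was called in Fshr-CAM against wild type, in Fshr-CAM/Lhr-null against Lhr-null or in the interaction, where 0.198%, 0.676% and 0.19% of all genes were called. Without Fshr-CAM/Lhr-null replicate 4, 1 was called higher against Lhr-null, Fosl2, a FOS relative (0.98, limma adjusted p = 0.00634), which was 0.76 (0.188) with that array and was named after its value was seen.

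Genes that carry signals to these promoters were called at a share near that of all genes in Lhr-null against wild type. Of 20 kinases, cAMP pathway genes and promoter-bound factors that passed the filter, 1 was called lower in Lhr-null against wild type, Mknk1, a kinase below the MAP kinases (-0.52 ± 0.16, limma adjusted p = 0.0491), where 6.37% of all genes were called lower, and 0 in the other 4 comparisons. That call was lost in 12 of 16 fits that left out 1 array, and with the authors' values, no detection filter, the replicate block or only the groups compared. Of 12 genes whose proteins can pair with FOS or JUN, or are relatives of such partners, 0 were called in any of the 5, with changes of -0.97 to 0.22 in Lhr-null against wild type, where 6.37% of all genes were called lower and 4.85% higher. The median over these 12 in Lhr-null against wild type was -0.26, against -0.004 over all genes. Cebpb and Atf4 were the brightest of the 12. Of 12 heat shock genes, which cells raise under stress, 0 were called in any of the 5, which is read against the same shares, and Hspa8 and Hspd1 were the brightest. The heat shock list averaged 9.30 to 9.74 log2 units on wild type arrays, 9.49 to 10.07 in Fshr-CAM, 9.31 to 9.60 in Lhr-null and 9.25 to 10.01 in Fshr-CAM/Lhr-null.

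Markers of some cell types of the ovary were called in the same contrasts, where 6.37% of all genes were lower and 4.85% higher in Lhr-null against wild type, and 1.63% and 0.395% in Fshr-CAM/Lhr-null against Fshr-CAM. Of 6 luteal and steroidogenic markers that passed the filter, 5 were called lower in each, and their summed signal was 8037 to 31329 in wild type and 7353 to 21766 in Fshr-CAM but 1010 to 2285 in Lhr-null and 1457 to 3168 in Fshr-CAM/Lhr-null. Of 8 endothelial markers, 5 were called lower in Lhr-null against wild type and 0 in the other comparison of Lhr loss, with summed signals of 4228 to 5862, 4170 to 6795, 3027 to 3689 and 3172 to 4705 in the same order. Of 4 theca markers, 2 were called higher in Lhr-null against wild type and 1 in Fshr-CAM/Lhr-null against Fshr-CAM. Their summed signals overlapped, at 1356 to 11349 in wild type and 3151 to 7429 in Lhr-null. The same held for 4025 to 17859 in Fshr-CAM and 5142 to 16433 in Fshr-CAM/Lhr-null. Of 7 granulosa markers, 4 were called higher in Lhr-null against wild type, 0 in the other comparison of Lhr loss and 3 in Fshr-CAM against wild type, where 0.198% of all genes were called. This list includes Fshr, the gene altered in Fshr-CAM, which read 8.35 to 9.16 in wild type and 11.12 to 11.88 in Fshr-CAM. In comparisons of Fshr-CAM it is therefore no independent mark of granulosa cells. Oviduct markers (3 of 5), sperm markers (2 of 3) and fat cell markers (3 of 4) were called higher in Lhr-null against wild type, and 3, 2 and 1 of them were called lower in Fshr-CAM/Lhr-null against Lhr-null. Oocyte, macrophage, lymphocyte, red blood cell and smooth muscle markers had 0 calls in any of the 5 comparisons. No pituitary marker passed the filter on these 16 arrays. The part of these cell types in the changes of Dusp1, Jun, Zfp36 and Junb was not tested.

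The calls were read again with the arrays that stood apart left out, 1 at a time. Signals foreign to the ovary were not limited to single Lhr-null arrays. Oviduct markers averaged 7.47, 8.32 and 9.94 log2 units on Lhr-null replicates 2, 3 and 4, against at most 5.43 in wild type. Fat cell markers averaged at least 6.29 in Lhr-null and at most 5.71 in wild type. Each fit thus kept Lhr-null arrays with such signals, and whether the calls against wild type hold without them was not tested. Without Lhr-null replicate 2, the highest but not the only array with sperm genes, Dusp1 in Lhr-null against wild type was -2.72 (limma adjusted p = 0.00605). Jun was -1.25 (limma adjusted p = 0.0825) and Zfp36 -1.02 (0.0682) there. Without Fshr-CAM/Lhr-null replicate 4, which had the low Fshr signal, Dusp1 in Fshr-CAM/Lhr-null against Fshr-CAM was -2.06 (limma adjusted p = 0.0286) and Junb -1.20 (0.0112). Without Lhr-null replicate 3, 1 of the arrays high in Ovgp1, Dusp1 was -2.64 (limma adjusted p = 0.00691), but Jun shrank to -1.08 (0.114) and Zfp36 to -0.67 (0.171). Without Lhr-null replicate 4, the other, Dusp1 was -2.72 (limma adjusted p = 0.00776), Jun -1.46 (0.0449) and Zfp36 -1.10 (0.0536). Without Fshr-CAM/Lhr-null replicate 3, Dusp1 against Fshr-CAM was -2.16 (limma adjusted p = 0.0182) and Junb -1.20 (0.0105).

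**Figure D5:**
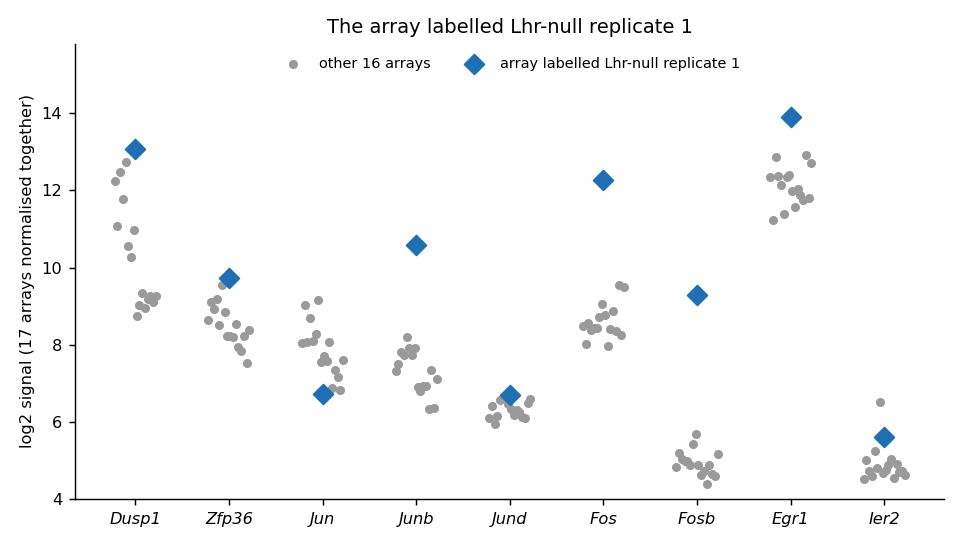
Log2 signal of the 9 genes after all 17 arrays were normalised together, with the array labelled Lhr-null replicate 1 as a blue diamond and the other 16 arrays as grey points. The diamond lies above every other array for Fos (12.26), Fosb (9.30), Junb (10.58), Egr1 (13.90), Dusp1 (13.08), Zfp36 (9.74) and Jund (6.68), and below every other array for Jun (6.72). It lies above every wild type array for 8 of the 9 genes and for 31.9% of all probes.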

How the data were processed

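Total RNA from 17 samples labelled as ovary was read on Illumina MouseWG-6 v2.0 arrays. Per the submitters' processing notes, the authors used GenomeStudio 1.7.0. Their deposited table gives, per the file headers, a mean intensity per probe without background subtraction, a detection p-value, the count of beads and the bead standard error as a signal value. Per array 19366 to 22006 probes were detected, and 24 to 58 beads stood behind each value of the 10 genes. The number of arrays limits the precision. Unplaced signal columns numbered 0.

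Values were recomputed in R 4.3.3 with limma 3.58.1 (neqc, offset 16). Probes detected (p under 0.05) on 4 or more arrays were fitted with 1 mean per genotype, eBayes with a trend and Benjamini-Hochberg adjustment over all probes, at 0.05. Array annotation named 34885 probes with 1 symbol, 18 with several and 10378 with none. The code was tested on simulated data. The 10 genes, lists, tests and the use of 16 arrays were chosen with earlier results of these data known.

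Named genes are the 10, up to 4 per other list and comparison with the largest change past the threshold (with none called in a list, the 2 brightest), 8 genes of like pattern by each measure, and Gh, Prl, Lhb, Fshr and Lhcgr. Ldhc, Prm1, Ovgp1 and the 5 genes of the promoter display were chosen after their values were seen. Correlations used 100000 permutations. Alternatives are given in the closing section. Figures were drawn with matplotlib 3.10.9.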

Additional observations from a re-analysis of the deposited data

Results flagged for a closer look

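The array labelled Lhr-null replicate 1, used above only where 17 arrays are named, held high signals of most of these genes. With all 17 arrays normalised together it lay above all 4 wild type arrays for 8 of the 9 genes, as it did for 31.9% of all 23311 probes. Fos stood at 12.26 there, against 8.02 to 8.57 in wild type. Junb stood at 10.58 against 7.31 to 7.82, Egr1 at 13.90 against 11.24 to 12.86, Zfp36 at 9.74 against 8.63 to 9.18 and Jund at 6.68 against 5.95 to 6.41. Within the genotype on its label it also lay far from the other 3 arrays by Dixon's test for Fosb (9.30, others 4.59 to 5.16), Ier2 (5.60, others 4.62 to 4.72) and Dusp1 (13.08, others 9.10 to 9.26). Growth hormone, prolactin and Lhb signals were also high on that array, and Fshr stood at 4.51. Whether these values are linked cannot be told from 1 array and was not tested.

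Junb on Fshr-CAM/Lhr-null replicate 5 (6.35) lay apart from the other 4 arrays of its genotype (6.81 to 6.95). Without that array the change of Junb against Fshr-CAM was -1.05 (limma adjusted p = 0.0162). Dixon's test was run on 36 groups of values and picked out 4, of which 3 were on the array labelled Lhr-null replicate 1, and chance picks out about 1 group in 20.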

How the results depend on the processing

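Calls of Dusp1 in both comparisons of Lhr loss and of Junb against Fshr-CAM held in 9 of 10 alternatives that kept to whole groups, the exception being all 17 arrays. Calls of Jun and Zfp36 in Lhr-null against wild type held in 7 and 6 of 10. With 1 array left out at a time, 1179 of 1260 values were counted as unchanged. A gene had to keep its direction and side of the threshold, a median to stay within the replicate spread, and a count to stay within a set ratio. The 1260 include counts that were 0 in every fit, and fits without an array from outside the comparison. The cause of each change below was not tested. Arrays per group, 3 to 5, limit the precision, and Fosb, Ier2, Nr4a1 and the second Junb probe are limited by signal near background. A slide block was not run, since the headers used here name no slide. Same-numbered arrays deviated together in 6 of 21 pairs (r over 0.1; range -0.48 to 0.33), so the numbers were not taken as pairs.

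Lhr-null against wild type. Of the 9 genes, 3 were called, but 1 each with 17 arrays, with no detection filter, with array weights and no trend, and with the replicate block (limma adjusted p = 0.0631 for Jun and 0.0515 for Zfp36, the only calls among the 9 that it changed), 4 with median-centred signals (Junb added), and 1 to 3 with 1 array left out. Their median of -0.21 became 0.25 with 17 arrays, -0.040 with no filter, -0.66 with the strict filter and -0.44 to -0.11 with 1 array left out. All probes called, 2210, became 1354 with 17 arrays, 1313 with only the groups compared and 1240 to 2604 with 1 left out. Other immediate early genes called fell from 6 to 2 with 17 arrays. Upstream genes called, 1, became 2 with 17 arrays, with median-centred signals and with array weights, 0 with the authors' values, with no filter, with the replicate block and with only the groups compared, 5 with the mean of a gene's probes and 0 to 2 with 1 left out. FOS and JUN partners and heat shock genes, 0 each, became 1 each with the mean of probes and 0 to 1 with 1 left out.

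Fshr-CAM/Lhr-null against Fshr-CAM. Genes called among the 9 fell from 2 to 0 with 17 arrays. All probes called, 374, became 118 with 17 arrays, 769 with median-centred signals, 247 with the mean of probes and 190 to 630 with 1 left out. The median of -0.55 became -0.32 with the authors' values and -0.70 to -0.48 with 1 left out. Other immediate early genes called, 3, became 1 with 17 arrays and 8 with median-centred signals, and upstream genes called, 0, became 1 with median-centred signals and with the mean of probes.

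Fshr-CAM against wild type. All probes called, 30, became 2 with 17 arrays, 14 with median-centred signals, 51 with array weights, 7 with only the groups compared and 6 to 46 with 1 left out. The median of 0.23 became 0.11 with the authors' values and 0.11 with no filter, -0.13 with the strict filter and -0.019 to 0.35 with 1 left out.

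Fshr-CAM/Lhr-null against Lhr-null. All probes called, 130, became 199 with the strict filter, 85 with 1 probe per gene, 470 with array weights, 66 with the replicate block, 26 with only the groups compared and 59 to 413 with 1 left out (413 without Fshr-CAM/Lhr-null replicate 4). The median of -0.15 became -0.98 with 17 arrays. Other immediate early genes and upstream genes called, 0 each, became 1 each with array weights, and the former 0 to 1 with 1 left out (1 without Fshr-CAM/Lhr-null replicate 4).

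Interaction. All probes called, 36, became 21 with 17 arrays, 58 with no filter, 74 with the strict filter, 109 with array weights, 17 with the replicate block and 20 to 88 with 1 left out. The median of -0.45 became -0.68 with 17 arrays, -0.26 with the authors' values, -0.30 with median-centred signals and -0.51 to -0.28 with 1 left out.

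Signs of single genes turned, none of them called. With 17 arrays, Lhr-null against wild type turned to 0.25 for Junb, 0.19 for Ier2 and 0.91 for Fosb, Fshr-CAM/Lhr-null against Lhr-null to -0.086 for Ier2 and -0.31 for Zfp36, and the interaction to -0.36 for Dusp1 and -0.13 for Zfp36. Egr1 in Lhr-null against wild type turned to -0.014 with median-centred signals and ranged from -0.060 to 0.60 with 1 array left out. In Fshr-CAM against wild type array weights gave 0.034 for Jun and 0.038 for Zfp36, and leaving out 1 array gave -0.48 to 0.056 for Jun, -0.44 to 0.0026 for Zfp36 and -0.46 to 0.091 for Egr1. In Fshr-CAM/Lhr-null against Lhr-null that gave -0.21 to 0.076 for Fosb, -0.45 to 0.041 for Junb and -0.14 to 0.28 for Zfp36.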
